A study of Rattus norvegicus with 8 samples.

Results

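Cell cycle and DNA replication genes were examined in the whole blood of hypertensive rats. The set of 40 genes was named by symbol, with earlier results of these data known. Of these, 39 were among the 17446 genes counted. Cenpe was the member not found. RNA-seq was performed on 8 libraries of whole blood from wild type Wistar rats, male and 12 to 14 weeks old at the start, in 2 models of hypertension. In the AngII model, osmotic minipumps rated for 4 weeks delivered angiotensin II at 0.4 mg/kg/day, a model in which the renin–angiotensin system is driven directly. In the DOCA–HS model, rats received the mineralocorticoid deoxycorticosterone acetate at 100 mg/kg once a week, with 0.9% NaCl and 1% KCl in the drinking water. Each model was sampled when hypertension was established, at week 1 for AngII and week 3 for DOCA–HS, and again after 4 weeks of oral Chios mastic gum (CMG, 220 mg/kg), the resin of a mastic tree, at weeks 5 and 7. Each of the 4 groups held 2 libraries. The libraries analysed here hold no normotensive rats and no rats given saline in place of CMG, so CMG, time, age and the further weeks of the hypertensive stimulus cannot be told apart. Nothing in the labels says whether libraries of a group came from separate animals, so p-values measure the spread between these libraries only.

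A cell preparing to divide loads the MCM2–7 helicase on its replication origins with the help of Cdc6, makes deoxynucleotides with thymidine kinase, thymidylate synthase and ribonucleotide reductase, and copies its DNA with the sliding clamp Pcna. It then enters mitosis under cyclin B and Cdk1, builds a spindle with Aurora kinases, Tpx2 and kinesins, and leaves mitosis when the anaphase-promoting complex (APC/C), with Cdc20 and Ube2c, marks proteins for destruction. Most circulating leukocytes are not dividing, and nucleated red cell precursors normally stay in the marrow, while young reticulocytes in blood still carry RNA. In whole blood, fewer cells of a type and less RNA per cell cannot be told apart.

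Genes of S phase and of mitosis are known to differ in their promoters, E2F sites being typical of the first, and CCAAT boxes with a CHR element of the second. RefSeq promoters of the GRCr8 assembly, 250 bases before to 50 after the annotated start, were at hand for 31 of the 39 members. Both strands were searched for 4 motifs: the CCAAT box (CCAAT), the CHR element (TTTGAA or TTCGAA), the E2F site (TTTCCCGC, TTTGGCGC, TTTCGCGC or TTTGCCGC) and, for comparison, the AP-1 site (TGACTCA). The CCAAT box stood in 24 of 31 member promoters (77.4%), against 37.7% of all 27457 promoters. The CHR element stood in 17 (54.8%), against 19.5%. The E2F site stood in 8 (25.8%), against 2.3%, and the AP-1 site in 0, against 4.5%. The E2F site was found in 6 of 10 promoters of the helicase and nucleotide groups and in 0 of 13 of the mitotic kinase and spindle groups, and the CHR element in 3 of 10 and 9 of 13. Matches are letters in a window and not shown binding sites, and no factor binding was measured.

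The promoters of 4 members are shown because the results turn on them. Top2a and Nusap1 had the calls in the DOCA–HS model, and Mcm3 represents the helicase genes. Mki67 had lower values in DOCA–HS than in AngII before CMG, but it was not called (adjusted p = 0.992 in edgeR). Capitals mark matches of the CCAAT box, the CHR element and the E2F site on either strand.
Top2a, chr10:84473044-84473343, minus strand: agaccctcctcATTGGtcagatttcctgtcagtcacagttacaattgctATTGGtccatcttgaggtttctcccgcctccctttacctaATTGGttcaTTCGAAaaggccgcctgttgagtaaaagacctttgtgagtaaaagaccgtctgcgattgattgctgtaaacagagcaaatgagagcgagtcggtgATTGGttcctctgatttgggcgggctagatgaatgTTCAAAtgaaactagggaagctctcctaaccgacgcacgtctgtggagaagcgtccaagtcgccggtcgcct
Nusap1, chr3:127057045-127057344, plus strand: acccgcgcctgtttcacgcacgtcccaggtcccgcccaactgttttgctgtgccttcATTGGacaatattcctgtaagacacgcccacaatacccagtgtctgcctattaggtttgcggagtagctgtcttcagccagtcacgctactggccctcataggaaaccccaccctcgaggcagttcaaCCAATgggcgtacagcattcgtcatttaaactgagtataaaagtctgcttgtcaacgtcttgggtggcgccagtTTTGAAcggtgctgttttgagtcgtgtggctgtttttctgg
Mki67, chr1:199952544-199952843, minus strand: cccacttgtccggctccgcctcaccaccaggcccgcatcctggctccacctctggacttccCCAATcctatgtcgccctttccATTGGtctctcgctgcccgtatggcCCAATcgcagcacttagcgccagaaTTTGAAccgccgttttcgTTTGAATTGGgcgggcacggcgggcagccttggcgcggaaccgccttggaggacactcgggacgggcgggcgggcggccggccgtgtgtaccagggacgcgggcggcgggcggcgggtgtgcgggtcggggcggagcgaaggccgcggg
Mcm3, chr9:30733697-30733996, minus strand: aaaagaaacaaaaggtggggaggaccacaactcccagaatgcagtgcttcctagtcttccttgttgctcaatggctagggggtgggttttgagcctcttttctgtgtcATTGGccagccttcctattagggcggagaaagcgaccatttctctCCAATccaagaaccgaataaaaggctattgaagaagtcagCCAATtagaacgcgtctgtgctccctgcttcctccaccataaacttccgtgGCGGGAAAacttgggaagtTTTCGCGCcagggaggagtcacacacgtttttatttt
Top2a holds 4 CCAAT boxes and 2 CHR elements, Nusap1 2 and 1, and Mki67 4 and 2. Mcm3 holds 3 CCAAT boxes and 2 E2F sites, but no CHR element.

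The members were a small part of the blood RNA. Their counts added up to 1180 to 6300 per library, of 4149104 to 13205565 counts in all, or 0.129% to 0.181% of the counts outside hemoglobin, which itself took 61.9% to 84.3%. The second DOCA–HS library after CMG stood apart, with the fewest counts outside hemoglobin (651764, against at least 2195735 in the others), the highest hemoglobin share (84.3%), a TMM factor of 0.343 and 10 members with 10 counts or more, against 21 to 28. The log2 fold changes of the called members and the medians over all members that rest on this library are given with and without it. Role group medians, counts of members without overlap and fold changes of other gene lists are given only with it. Markers of T cells, monocytes and neutrophils were detected in all libraries, and 6 of 8 heart muscle markers were at 0 in all of them, with 0 to 1 count for the list.

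**Figure D1:**
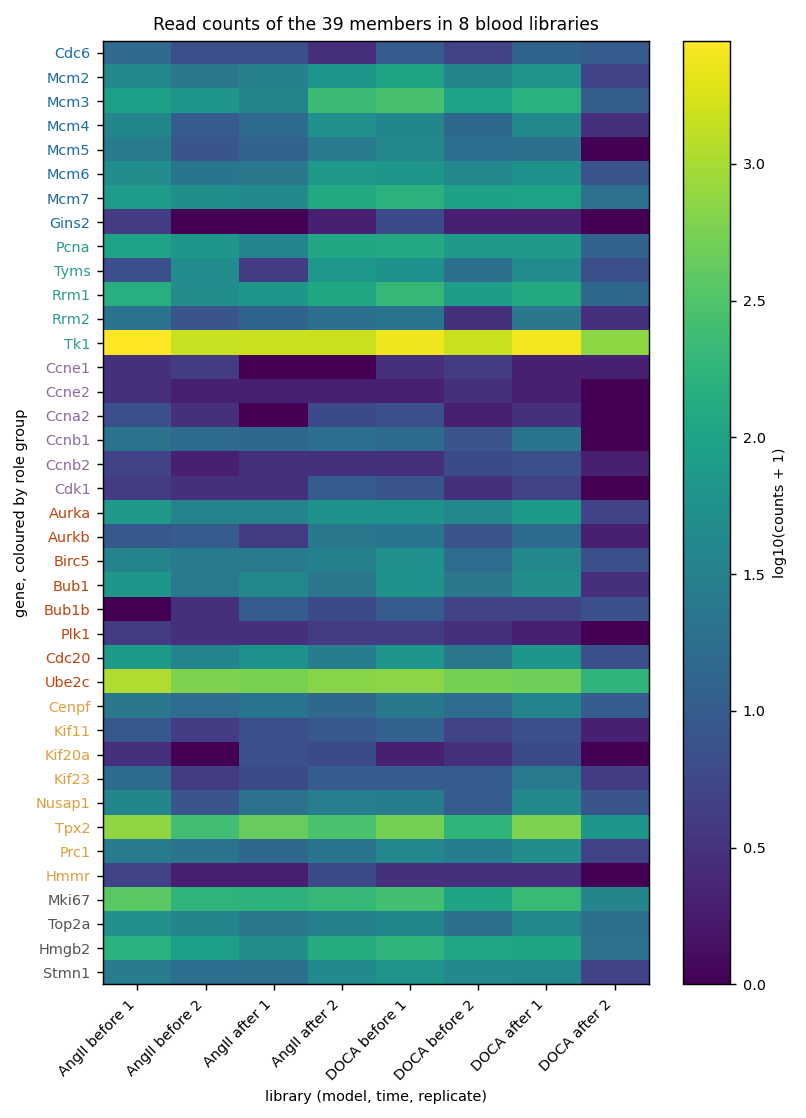
Read counts, as log10(counts + 1), of the 39 members (rows, names coloured by role group) in the 8 libraries (columns). Tk1 is the brightest row in every library, and most cyclins and kinesins stay near 0.

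Tk1, Ube2c, Tpx2 and Mki67 together took 65.6% to 85.2% of the members' counts, Tk1 alone 36.8% to 61.6%. These are shares of reads and not of molecules, as counts grow with transcript length. In contrast, 11 members had too few counts to be tested in any comparison, with 9 to 78 counts over all libraries: Gins2, Ccne1, Ccne2, Ccna2, Ccnb2, Cdk1, Plk1, Kif11, Kif20a, Kif23 and Hmmr. These include Cdk1, the kinase that drives mitotic entry, and most of the cyclins. They were not tested with the filter in place, so no conclusion is drawn on differences in them. The filter on low counts left 26 members in the AngII model, 27 in the DOCA–HS model and 28 in the fit of all libraries.

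The first comparison asked whether the members changed in the AngII model over the CMG period. No member met the call rule, a log2 fold change beyond 1.5 with an unadjusted p of at most 0.05 in edgeR's quasi-likelihood test, against 0.903% of 7201 genes called higher and 0.333% called lower. At a p of at most 0.05 alone, 0 members were higher and 0 lower, against 5.04% and 1.61% of genes. DESeq2 called 0 members, against 48 of 7201 genes higher and 18 lower. The 26 log2 fold changes ran from -0.78 to 0.54, with a median of -0.12 against -0.01 for all genes, and 17 of them were smaller than their own standard error.

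With TMM scaling, role groups had medians of different sign in this model. All 6 tested MCM genes had positive log2 fold changes, with a median of 0.36, while 5 of 6 mitotic kinase and APC/C members, 3 of 4 spindle members and 3 of 4 chromatin members had negative ones, with medians of -0.18, -0.12 and -0.54. Relative to the median of all genes, the MCM median stayed at 0.37 to 0.45 and the mitotic kinase median at -0.25 to -0.16 over 4 scalings. With counts outside hemoglobin only 2 of 6 mitotic kinase and 1 of 4 spindle members were negative. Without the second later library signs turned, with Mcm3 at -0.58, Mcm7 at -0.13, Cdc20 at 0.65, Tpx2 at 0.51 and Cenpf at 0.64. None of these genes passed the test with all libraries. All 17 tested erythroid markers had negative values in this model, with a median of -0.49, and their part was not tested.

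**Figure D2:**
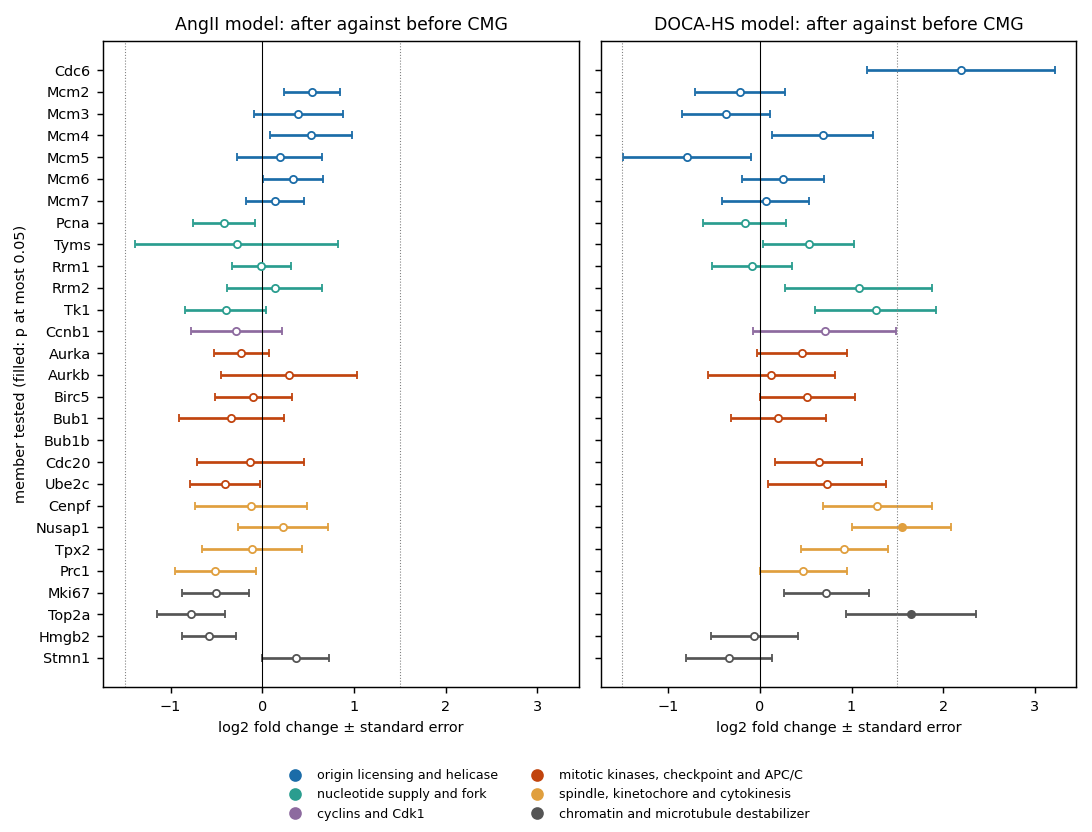
Log2 fold changes after against before CMG with standard errors (bars) for the members tested in the AngII model (left) and the DOCA–HS model (right), 2 libraries a group. Dotted lines mark 1.5 in each direction and filled points a p of at most 0.05, which Nusap1 and Top2a reach in the DOCA–HS model.

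The values of Top2a, the topoisomerase that untangles replicated DNA, were 4.32 and 6.08 CPM in the earlier AngII libraries and 3.68 and 2.37 in the later ones, CPM being counts scaled to library size with the TMM factor. Both later libraries lay below both earlier ones, but the log2 fold change of -0.78 (SE 0.37) gave an unadjusted p = 0.0669 in edgeR. Mki67, which encodes the proliferation marker Ki-67, had 29.4 and 29.9 CPM before CMG and 26.7 and 14.5 after it, with a log2 fold change of -0.51 (SE 0.37). The second later library was the lower one for both genes. Of 26 members with a mean of 10 counts or more, 2 were higher in both later libraries (Mcm2 and Stmn1), against 20.9% of all genes, and 4 were lower (Aurka, Hmgb2, Mki67 and Top2a), against 18.5%. With counts outside hemoglobin 4 were higher, against 32.5%, and 2 lower (Mki67 and Top2a), against 4.28%, and with total counts 3, against 30.9%, and 1 (Top2a), against 4.45%.

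Among the members with most counts, Tk1 had 222 and 245 CPM before CMG in the AngII model and 237 and 110 after it. Ube2c had 86.8 and 102 before and 88.8 and 50.8 after. For both genes the first later library lay between or near the earlier ones and the second lay below them. Rrm1 had 11.4 and 8.11 CPM before and 10.7 and 8.65 after, and Mcm7 had 6.37 and 8.78 before and 6.72 and 9.39 after. Hmgb2 had 12.6 and 14.7 before and 7.84 and 9.98 after, without overlap, with a log2 fold change of -0.58 (SE 0.30, unadjusted p = 0.086 in edgeR). Nusap1 had 2.91 and 1.18 before and 3.04 and 2.14 after, and Cenpf 1.81 and 2.70 before and 3.36 and 0.961 after, with overlap for both. Ccnb1 had 1.57 and 2.53 before and 2.08 and 1.26 after, and Ccnb2 0.314 and 0.169 before and 0.32 and 0.148 after.

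The 2 AngII libraries after CMG were unlike each other in these genes. In the first, Tpx2, which carries Aurora A to the spindle, stood at 70.7 CPM and Cdc20 at 8.96, and in the second at 20.9 and 2.07. Mcm3 went the other way, with 5.76 and 16.6 CPM. The earlier libraries lay between these values for both mitotic genes, with Tpx2 at 58.9 and 41.2 CPM and Cdc20 at 5.82 and 5.74. The median over spindle members was 1.22 lower on the log2 scale in the second library than in the first, and that over MCM genes 0.49 higher. Platelet markers were 4.12 lower, erythroid markers 1.14 lower and B cell markers 0.62 higher in the same library, and their part in the difference was not tested. Without the first library the members' median log2 fold change was -0.48, and without the second 0.057, against -0.12 with both. The medians of all genes were 0.01, -0.003 and -0.01.

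**Figure D3:**
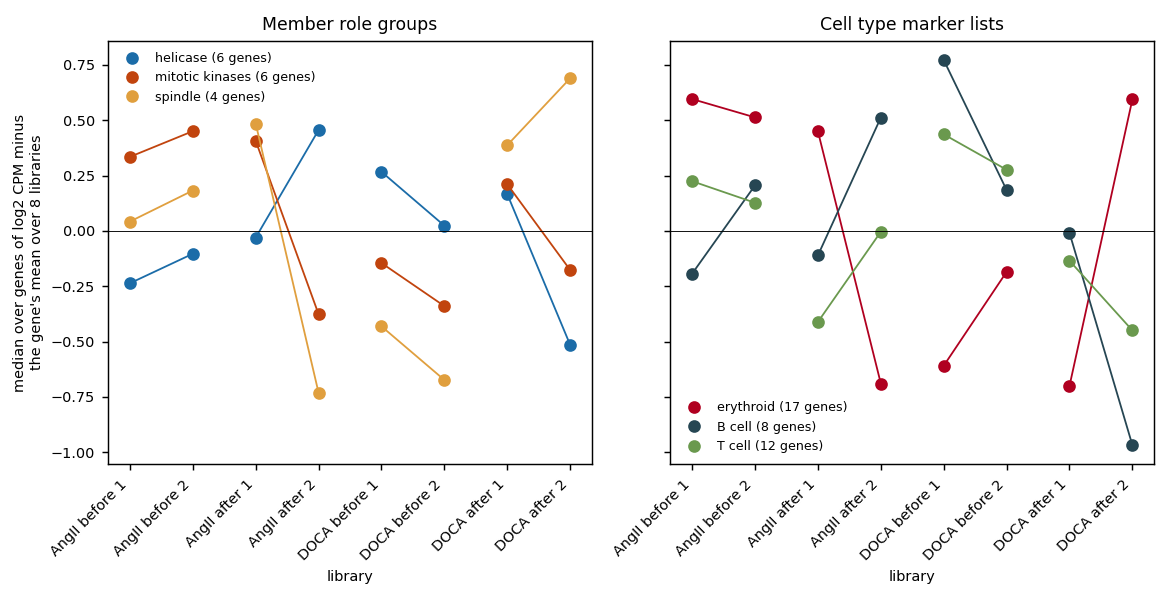
Median over genes of log2 CPM minus the gene's mean over the 8 libraries, for 3 member role groups (left) and 3 marker lists (right). Lines join the 2 libraries of a group. In the AngII group after CMG the spindle members and the erythroid markers are lower in replicate 2 than in replicate 1, and the MCM genes and B cell markers higher.

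In the DOCA–HS model, 2 of 27 tested members met the call rule after CMG, both higher, against 1.79% of 7720 genes called higher, and 0 were lower, against 0.259%. Nusap1, which bundles spindle microtubules, had 1.496 and 0.956 CPM before CMG and 3.23 and 4.92 after it. Both later libraries lay above the earlier ones, with a log2 fold change of 1.55 (SE 0.54, unadjusted p = 0.0204 in edgeR). Top2a had 2.05 and 1.91 CPM before and 2.92 and 12.7 after, also without overlap, with 1.65 (SE 0.71, unadjusted p = 0.0480 in edgeR). The adjusted p was 0.997 for both genes in edgeR. At a p of at most 0.05 alone the counts were the same 2 higher and 0 lower, against 2.73% and 0.44% of genes. DESeq2 called 3 members higher and 0 lower, against 211 and 8 of 7720 genes, and 0 genes passed adjustment. The 27 members tested include Cdc6, which passed the filter on low counts only through the later libraries.

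The higher value of Top2a came from the second later library, where 18 counts gave 12.7 CPM with an exact Poisson interval of 7.50 to 20.003, and 7 counts of Nusap1 gave 4.92 CPM with 1.98 to 10.1. The interval covers counting error only. Without this library Top2a changed by 0.56 (unadjusted p = 0.213) and Nusap1 by 1.35 (unadjusted p = 0.0052), and 0 members met the call rule in edgeR. No member was called when the libraries were scaled to the counts outside hemoglobin, against 20 of 7720 genes higher and 12 lower.

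Beyond the calls, 20 of the 27 tested members had positive log2 fold changes, with a median of 0.52 against -0.04 for all genes, and 0.50 without Cdc6, which passed the low-count filter only through the later libraries. The difference of the medians was 0.47 to 0.55 over 4 scalings, while the median itself ran from 0.55 to -0.29, so the members are described relative to all genes. Without the second later library the median was 0.43. The difference of the medians was 0.44 to 0.79 with each library left out in turn, and 0.02 over the 10 members with 10 counts in every library. All 4 tested spindle members (Cenpf, Nusap1, Tpx2 and Prc1) had positive values, with a median of 1.10, and all 6 mitotic kinase and APC/C members, with 0.49, under TMM scaling. With counts outside hemoglobin 0 of 4 spindle and 2 of 6 mitotic kinase members were negative, and with total counts 1 of 4 and 6 of 6, with medians of 0.25 and -0.40. Relative to the median of all genes, the spindle median stood at 1.01 to 1.15 and the mitotic kinase median at 0.36 to 0.53 over 4 scalings. The 6 MCM genes had a median of -0.075, with 3 negative. Nusap1 was the only spindle member to pass the test.

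Tpx2 had 29.6 and 19.1 CPM before CMG and 45.6 and 46.4 after it, a log2 fold change of 0.92 (SE 0.47, unadjusted p = 0.087 in edgeR), with no overlap. Cenpf, a kinetochore protein, had 1.33 and 1.70 CPM before and 2.61 and 6.33 after, and its log2 fold change was 1.28 (SE 0.59). Ube2c, the ubiquitin-conjugating enzyme of the APC/C, had 38.8 and 57.7 CPM before and 37.6 and 124 after, so its groups overlapped. Tk1, the thymidine salvage kinase, had 133 and 160 CPM before and 189 and 511 after, with 1.26 (SE 0.66, unadjusted p = 0.090 in edgeR). The second later library held the highest value of Cenpf, Ube2c and Tk1, and without it the log2 fold changes were 0.83, -0.35 and 0.38, while that of Tpx2 was 0.91.

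Mcm3 had 15.5 and 10.6 CPM before CMG and 12.2 and 7.03 after, with overlap and a log2 fold change of -0.37 (SE 0.48). Mcm7 had 9.20 and 9.88 before and 7.61 and 13.4 after. Rrm1, the large subunit of ribonucleotide reductase, had 11.02 and 8.82 before and 9.46 and 9.14 after, also with overlap. Hmgb2, a chromatin protein, had 9.58 and 11.6 before and 7.84 and 13.4 after. Ccnb1, cyclin B1 and the only cyclin tested, had 0.83 and 0.74 before and 1.61 and 0.00 after, and Ccnb2 had 0.11 and 0.53 before and 0.46 and 0.70 after. Over all 8 libraries Ccnb1 had 108 counts and Ccnb2 had 23.

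Of the remaining tested members in this model, Rrm2, the small subunit of ribonucleotide reductase, had a log2 fold change of 1.08 (SE 0.80) and Mcm5 -0.79 (SE 0.70), with 0.00 CPM in the second later library. Birc5 (0.52), the Aurora kinases Aurka (0.46) and Aurkb (0.12), the checkpoint kinase Bub1 (0.20) and Cdc20 (0.64) were positive. So were Mcm4 (0.69), Mcm6 (0.25), Tyms (0.53), Prc1 (0.47), a spindle midzone protein, and Mki67 (0.73). Pcna (-0.17), Mcm2 (-0.21) and Stmn1 (-0.34), which destabilizes microtubules, were negative. None of these log2 fold changes passed the test. Bub1b was tested only in the fit of all libraries, with 39 counts in all.

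Of 27 members with a mean of 10 counts or more, 12 were higher in both later libraries than in both earlier ones, against 14.8% of all genes, and 2 were lower, against 21.4%. This count rests on the scaling: with the counts outside hemoglobin 5 were higher (Cenpf, Kif23, Nusap1, Tk1 and Top2a), against 6.45%, and 5 lower, against 28.2%. Kif23, counted as higher under both scalings, had 9 and 9 counts before and 25 and 3 after. It reached the mean of 10 only through a later library, so its place in these counts is a description only. With total counts 1 was higher (Top2a), against 1.36%, and 6 lower, against 24%. Summed erythroid markers stood at 59198 CPM in the second later library and 17914 in the first, and 13 of 17 had positive log2 fold changes, with a median of 0.44. Summed platelet markers stood at 952 and 557 CPM, against 195 and 280 before CMG, and 5 of 5 had positive log2 fold changes, with a median of 1.26 and 2 called. NK and cytotoxic markers were positive in 8 of 10, with a median of 0.88 and 1 called, and B cell markers negative in 8 of 8, with a median of -0.84 and 0 called. Their part in these values was not tested.

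A ratio of counts within a library does not depend on scaling. It was chosen after the values were seen, as the counts of 14 mitotic members (kinase, APC/C and spindle groups without the abundant Ube2c and Tpx2) over the counts of Mcm2 to Mcm7. It was 0.546 and 0.606 before CMG in the DOCA–HS model and 0.938 and 1.17 after it, without overlap. In the AngII model it was 1.16 and 1.03 before and 1.53 and 0.454 after, the later libraries lying on both sides of the earlier ones. With only 2 libraries a group, an exact permutation test could not reach 0.05, and none was run.

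**Figure D4:**
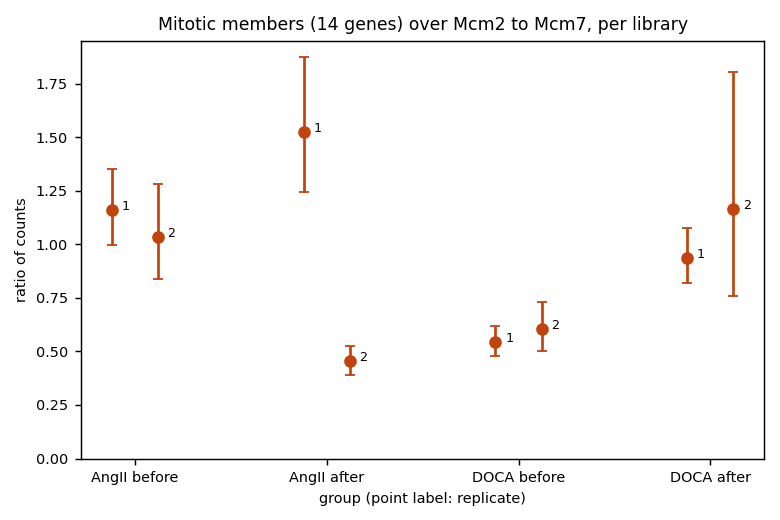
Counts of 14 mitotic members over counts of Mcm2 to Mcm7 in each library (points, labelled by replicate), with exact (Clopper-Pearson) 95% binomial intervals of counting error (bars). The DOCA–HS libraries after CMG lie at 0.938 and 1.17, above 0.546 and 0.606 before it, and the AngII libraries after CMG lie at 1.53 and 0.454.

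The difference of the change between the models was tested in 1 fit of all libraries. Of 28 tested members, 2 were called with a larger change in the DOCA–HS model, against 2.25% of 7994 genes, and 0 with a smaller one, against 0.913%. Top2a differed by 2.396 (SE 0.86, unadjusted p = 0.0181 in edgeR). Cdc6, the origin licensing factor, differed by 3.50 (SE 1.45, unadjusted p = 0.0355 in edgeR) on 2 to 14 counts per library. It passed the filter on low counts only through the 2 DOCA–HS libraries after CMG, where it was high, so its difference is a description and supports no statement on the members. Its values were 1.10 and 1.01 CPM before and 0.96 and 0.15 after in the AngII model, and 0.50 and 0.42 before and 0.92 and 6.33 after in the DOCA–HS model, where 9 counts made the last value. At a p of at most 0.05 alone the counts were also 2 and 0, against 2.53% and 1.21% of genes, and the lowest adjusted p over the members was 0.881. Scaled to counts outside hemoglobin, Top2a differed by 1.53 (unadjusted p = 0.104 in edgeR) and Cdc6 by 2.70 (unadjusted p = 0.065 in edgeR). Without the second DOCA–HS library after CMG, Cdc6 differed by 2.20 (unadjusted p = 0.095 in edgeR), Top2a by 1.36 (unadjusted p = 0.0341 in edgeR), and 0 members were called. The median difference was 0.68, against -0.12 for all genes, 0.62 without that library and 0.63 without Cdc6.

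The models were also compared before CMG, where model, week and animals cannot be told apart. No member met the call rule, against 0.425% of genes called higher and 0.413% lower in DOCA–HS. At a p of at most 0.05 alone, 2 members were lower in DOCA–HS, against 1.89% of genes, and DESeq2 gave 2 as well. The count was 9 of 26 when the 4 libraries before CMG were fitted alone and 5 without a filter. It was 0 with libraries scaled to total counts or to counts outside hemoglobin, and it moved with the library left out. The share of all genes at this threshold was not taken in these other fits, so 1.89% cannot be set against their counts. Mki67 had 29.4 and 29.9 CPM in AngII and 14.1 and 10.8 in DOCA–HS, a log2 difference of -1.25 (SE 0.42, unadjusted p = 0.0130 in edgeR). Top2a had 4.32 and 6.08 against 2.05 and 1.91, a difference of -1.36 (SE 0.58, unadjusted p = 0.0389 in edgeR). The adjusted p was 0.992 for both in edgeR. Scaled to counts outside hemoglobin, the differences were -0.51 (unadjusted p = 0.287 in edgeR) and -0.64 (unadjusted p = 0.309 in edgeR).

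The median over the 28 members was -0.53, against 0.06 for all genes, and the 6 MCM genes had 0.30. Of 26 members with a mean of 10 counts or more, 12 were lower in both DOCA–HS libraries, against 21.8% of all genes, and 3 were higher (Mcm2, Mcm7 and Stmn1), against 23.9%. With counts outside hemoglobin 4 were lower (Ccnb1, Mki67, Top2a and Ube2c), against 3.55%, and 11 higher, against 69%. With total counts 2 were lower (Top2a and Ube2c), against 2.19%, and 9 higher, against 61.6%. All 17 tested erythroid markers also had negative differences, with a median of -0.96, and their part was not tested.

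Other cell cycle genes were read from a list of 165, of which 144 were counted. After CMG in the DOCA–HS model, 26 of 28 tested mitosis genes had positive log2 fold changes, with a median of 0.61, and 3 were called higher: Cenpn (1.501), Incenp (1.62), a partner of Aurora B, and Tuba1b (1.54), an alpha-tubulin, against 1.79% of all genes. The 29 tested DNA replication genes had a median of -0.11, with 11 positive and 0 called. In the AngII model 23 of 27 mitosis genes had negative values, with a median of -0.28. Of the 81 tested genes of the list 0 were called, against 0.903% of all genes higher and 0.333% lower. By a p of at most 0.05 alone 0 were higher and 1 lower in edgeR. Centred on each gene's mean over the 8 libraries, log2 CPM of the mitosis list had medians of 0.22 and 0.23 before CMG in AngII. After it they were 0.36 and -0.50, so only the second later library was lower. In DOCA–HS these medians were -0.14 and -0.55 before and 0.03 and 0.29 after. The fold changes of these lists were not taken under other scalings or with a library left out. For the difference between the models, Cenpn (1.70), Pttg1 (2.11), the securin of sister chromatids, and Nek2 (2.07), a centrosomal kinase, were called, against 2.25% of all genes. Before CMG, Cdkn1a, the p21 inhibitor of cyclin-dependent kinases, was lower in DOCA–HS by the call rule, with a log2 difference of -1.66, 1 of 90 tested genes of the list, against 0.413% of all genes.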

How the data were processed

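RNA of whole blood was sequenced in 8 libraries, 2 for each model and time. Per the labels and the methods, the authors aligned reads to rn6 with HISAT2, counted them on genes by strand with HTSeq and deposited raw counts, with no normalization. The sources differ on whether the library kit kept strand. The methods state that hemoglobin annotations were removed before counting, but 2 hemoglobin genes took 61.9% to 84.3% of the counts. The file had 0 columns of other samples.

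The members and lists were chosen with earlier results of these data known. Each model was fitted alone in edgeR 4.0.16 (R 4.3.3) with filterByExpr, TMM and the quasi-likelihood test, and the difference between the models, and the models before CMG, were fitted on all 8 libraries with 4 group means. The study's thresholds defined a call: a log2 fold change past 1.5 in either direction, with p at most 0.05 before adjustment. Benjamini-Hochberg adjustment ran over all genes tested. Log2 CPM used a prior count of 2. Members called or with a p of at most 0.05, and the 2 of highest mean CPM in each role group, were named with values. Members named beyond this rule were chosen after their values were seen. Scripts were tested on simulated counts with known changes. Alternatives were DESeq2 1.42.0, other scalings and filters, the replicate block and each library left out. Scaling to total counts, separation counts under other scalings, and the mitotic to MCM ratio were added after the data were seen. Promoters came from RefSeq, GRCr8. No reference of the rn6 build was used here, so the only coordinates given are those of the printed promoters, in GRCr8.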

Additional observations from a re-analysis of the deposited data

Results flagged for a closer look

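In the test of the difference between the models, 2 members met the call rule, which uses the unadjusted p. Neither passed after adjustment. Top2a differed by 2.396 on the log2 scale (DOCA–HS minus AngII, unadjusted p = 0.0181 in edgeR, adjusted p 0.881), the change being 1.65 in the DOCA–HS and -0.78 in the AngII model. Cdc6 differed by 3.50 (unadjusted p = 0.0355 in edgeR, adjusted p 0.881), on 2 to 14 counts per library, but it passed the filter on low counts only through the DOCA–HS libraries after CMG, where it was high, so this value is a description only. Without the second DOCA–HS library after CMG, Cdc6 differed by 2.20 (unadjusted p = 0.095), and without the second AngII library after CMG Top2a differed by 2.06 (unadjusted p = 0.064), in edgeR. Of all genes, 2.25% were called in this direction. Groups of 2 libraries were too small to test for outlying samples.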

How the results depend on the processing

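No called value changed sign under any alternative. Scaled to counts outside hemoglobin, the members' median log2 fold change was 0.19 in AngII, 0.11 in DOCA–HS, -0.060 for the difference of the change and 0.20 between models before CMG, and scaled to total counts 0.21, -0.29, -0.44 and 0.34. Under both, 0 members were called higher in DOCA–HS, against 20 and 0 of 7720 genes. For the difference it was 0, against 14 and 2 of 7994. With 10 counts required in every library, the medians were -0.0047 in DOCA–HS, 0.24 for the difference and -0.27 before CMG. Members called higher were then 0 in DOCA–HS, against 31 of 2668 genes, and 1 for the difference, against 30 of 2624. Without a filter the median difference was 0.48 and 1 member was called higher in AngII, against 134 of 11196 genes. The median of all genes shifted with each scaling, and the cause of the other changes was not tested.

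With each library left out in turn, the median ran from -0.48 to 0.057 in AngII, 0.39 to 0.56 in DOCA–HS, 0.48 to 0.98 for the difference and -0.63 to -0.27 before CMG. Members called higher ran from 0 to 1 in AngII, 0 to 6 in DOCA–HS, 0 to 8 for the difference and 0 to 1 before CMG, and members called lower from 0 to 3, 0 to 1, 0 to 1 and 0 to 1. The calls of Nusap1 and Top2a in DOCA–HS were lost without the second later library or either earlier one. Without the first or the second later library the log2 fold changes were 1.94 and 1.35 for Nusap1 and 2.66 and 0.56 for Top2a. Without the first or the second earlier library the log2 fold changes were 2.01 and 1.39 for Nusap1 and 1.90 and 1.81 for Top2a. A lone library left in a group is assumed to vary like the others. Calls over all genes also rose in the fits with 6 members higher in DOCA–HS, 8 for the difference and 3 lower in AngII. These member counts are therefore a description only and support no statement on the members.

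Same-numbered libraries deviated together (r = 0.449 in AngII, 0.322 in DOCA–HS), but the labels give no shared animal. With the replicate block, 0 members were called in AngII, 3 in DOCA–HS and 3 for the difference, all higher. Of all genes, 82 of 7201, 116 of 7720 and 329 of 7994 were called higher in these fits. The members' medians were -0.17, 0.48 and 0.63. Depth limits most the 11 untested members.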
